A study of Arabidopsis thaliana with 24 samples.

Results

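Glutaredoxins are small oxidoreductases that use glutathione, and the CC-type class, named for the pair of cysteines in its active site, is found in land plants. The 10 Arabidopsis thaliana genes described here belong to that class and lie outside its tandem cluster on chromosome 4. They are AT1G06830 (GRXS11, also CEPD1), AT2G47880 (GRXC13, also CEPD2), AT4G33040, AT3G62960 (GRXC14), GRX480 (AT1G28480, also ROXY19), AT1G03020 (GRXS1), AT5G18600 (GRXS2), AT3G62930 (GRXS6), AT2G30540 (GRXS9) and AT3G62950 (GRXC11). They were chosen by locus, through the single probe set of each. The rule uses no measured value, but the loci were picked with earlier results of these data known. All 10 were measured, out of 13286 genes with a probe set of their own. Class membership and the names in brackets are background knowledge, since the annotation used here gives a symbol for GRX480 only. AT3G62950 and AT3G62960 are next to each other on chromosome 3, and AT2G47880 lies next to AT2G47870, a further CC-type gene on chromosome 2. The other members have no CC-type neighbour.

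The study asked how watering with glutathione changes transcripts in wild-type plants of the Columbia-0 accession. Pots of 3 plants, kept at 22 °C with 16 h of light and 8 h of dark, were subirrigated weekly, starting in week 1 and ending in week 5, each time with 25 ml. The solutions were 1 mM GSSG (oxidized glutathione), 2 mM GSH (the reduced form), 3 mM NH4NO3 (ammonium nitrate, written NH3NO4 in the treatment protocol) and plain water, the control. GSSG holds a pair of GSH units, so the glutathione doses match, and each fed solution supplies 6 mM nitrogen. Shoots including the apex were taken after 3 weeks (3W), and the second and the third leaf blade, counted from the top among the fully expanded ones, at week 4 (4W) and week 5 (5W). The 3 harvests and 4 waterings make 12 groups of 2 arrays. Every plant carried the same wild-type genome, and the labels do not say whether the 2 replicates came from separate pots. The p-values therefore rest on a spread between samples that may be technical.

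As background, many CC-type glutaredoxins bind TGA transcription factors, and several are known to respond to nitrate, cytokinin or salicylate. AT1G06830 and AT2G47880 are long-distance signals of nitrogen demand. Roots short of nitrogen send CEP peptides to the shoot, where CEP receptors induce both genes. Their small proteins then travel through the phloem to the roots and raise the nitrate transporter NRT2.1. GRX480 is induced by salicylate through TGA factors and represses the jasmonate and ethylene marker PDF1.2.

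Every probe set has 1 deposited signal on each array, scaled by the authors to a common mean. Over the 24 arrays that mean, trimmed by 2% at each end, was 500.044 to 500.055, the median signal was 155 to 194, and 39.4% to 43.7% of probe sets gave a signal under 100. Such dim signals are close to the array's background, so no fold is given where a group's mean is under 100, and signals are never set against each other between probe sets. The actin control's 3'/5' ratio, which is higher in degraded RNA, was 4.29 to 4.81 on the 4 replicate 2 arrays at 4W, against 2.65 to 3.80 on the other arrays. Some of the results that rest on those 4 arrays, though not all, are therefore also given without them, which leaves 1 array in each 4W group. The GAPDH control's 3'/5' ratio did not set them apart. It was 1.07 to 1.34 on those 4 arrays and 1.02 to 1.57 on the others. The signal of the cre 3' control did set them apart, at 44895 to 61671 on those 4 arrays and 25079 to 40898 on the others. The cause was not tested. Changes were tested with limma on log2(signal + 16), with p-values adjusted over all 22746 probe sets, and a gene is said to have risen or fallen where the adjusted p was under 0.05. Errors of log2 changes are standard errors. Comparisons with water at 1 harvest share the same 2 water arrays.

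With 5 of 90 member comparisons against water called, all of them downward and in leaf blades, AT1G06830, AT4G33040 and AT3G62960 were the members whose signal fell on feeding. AT1G06830 fell with GSSG at 4W and with GSH at 5W, AT4G33040 with GSH and with NH4NO3 at 5W, and AT3G62960 with NH4NO3 at 5W. Of all probe sets, 0.0396% were called lower with GSSG at 4W, 0.47% with GSH at 5W and 0.637% with NH4NO3 at 5W. No member rose against water at any single harvest in this fit. In 3W shoots 0 of the 10 members were called with any of the solutions, and the share of all probe sets called was 0% for each. At an unadjusted p under 0.05 limma again found 0 members. The shares of all probe sets at that cut were also small, 2.63%, 2.22% and 2.69% for GSSG, GSH and NH4NO3.

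**Figure D1:**
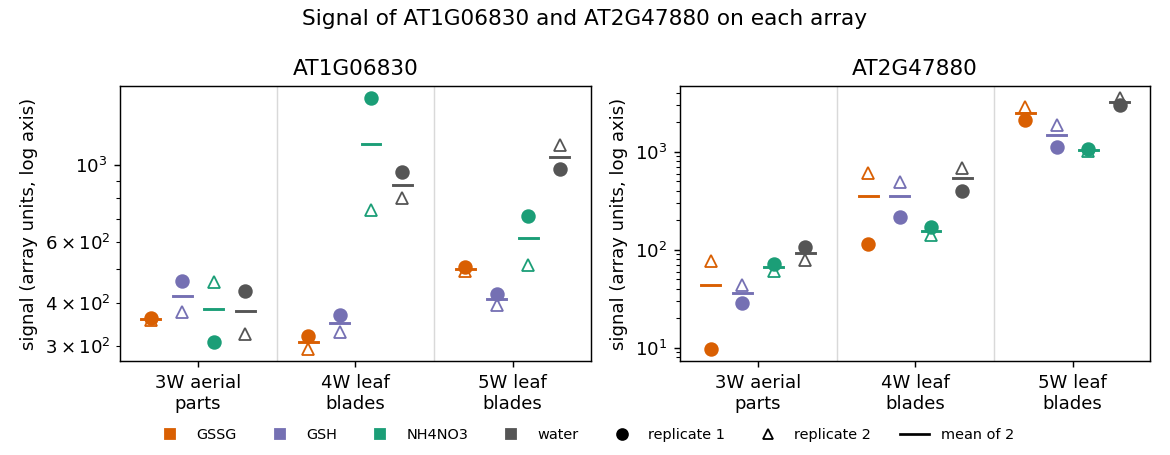
Signal (array units, log axis) of AT1G06830 and AT2G47880, genes of mobile nitrogen-demand signals, on each of the 24 arrays, by harvest and watering. Filled circles are replicate 1, open triangles replicate 2 and bars the mean of 2. The GSSG and GSH arrays of AT1G06830 lie below its water arrays at 4W and 5W, and the signal of AT2G47880 climbs over the harvests.

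AT1G06830, a gene of a mobile nitrogen-demand signal, was lower with both forms of glutathione in leaf blades. At 4W its signal was 322 and 295 with GSSG, 369 and 330.0 with GSH, 1556 and 742 with NH4NO3, and 951 and 804 with water. All 4 glutathione arrays lay below both water arrays, while the NH4NO3 arrays spanned them. AT1G06830 fell with GSSG by 1.46 ± 0.26 on the log2 scale, to a mean signal of 308 ± 19.1, against 878 ± 103 with water (SD, n = 2 each), which is 2.85-fold lower (limma adjusted p = 0.0473). It was the only member called in this comparison, in which 0.0396% of all probe sets were called lower. The call had little margin: it was lost on leaving out any 1 of the 4 arrays compared (adjusted p from 0.0664 to 0.335) and without the replicate 2 arrays of 4W (log2 change -1.52, adjusted p = 0.273). It was also lost under quantile normalization, median centring, a pseudocount of 64, no intensity trend and only the arrays compared (adjusted p from 0.0518 to 0.329). With GSH at 4W the log2 change was -1.29 ± 0.26 (limma adjusted p = 0.110), a ratio of means of 2.51 below water that did not pass. With NH4NO3 at 4W it was 0.29 ± 0.26 (limma adjusted p = 0.909).

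At 5W the signal of AT1G06830 was 508 and 492 with GSSG, 425 and 394 with GSH, 712 and 515 with NH4NO3, and 972 and 1141 with water. All 6 fed arrays were below both water arrays. AT1G06830 fell with GSH by 1.33 ± 0.26 on the log2 scale, to 409.7 ± 21.6, against 1056 ± 119 with water (SD, n = 2 each), 2.58-fold lower (limma adjusted p = 0.0121). The same comparison called 0.47% of all probe sets lower, and 2 of the 10 members. This call was lost without GSH replicate 1 (adjusted p = 0.116), GSH replicate 2 (adjusted p = 0.0739) or water replicate 2 (adjusted p = 0.155). The values with GSSG (-1.05 ± 0.26, limma adjusted p = 0.179) and NH4NO3 (-0.78 ± 0.26, limma adjusted p = 0.152) had the same sign and did not pass. The GSSG value passed without the replicate 2 arrays of 4W, which do not enter its means and change only the estimated spread. In 3W shoots the 8 arrays of AT1G06830 lay between 307 and 461 with no separation by watering. Over the mean of the 3 harvests AT1G06830 fell with GSH by 0.82 ± 0.15 (limma adjusted p = 0.0246), where 0.0835% of all probe sets were called lower. Leaving out single arrays ended that call in 9 cases, among them 3W water replicate 1 (adjusted p = 0.127), as did a prior without intensity trend (adjusted p = 0.132). With GSSG the mean change was -0.86 ± 0.15 (limma adjusted p = 0.0658), in a comparison that called 0.0044% of probe sets, and it passed with the dim probe sets left out, a pseudocount of 1, a robust prior or only the arrays compared (adjusted p from 0.0211 to 0.0425).

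AT2G47880, also described above as a mobile signal, varied most with the harvest. In 3W shoots its signal was 9.80 and 77.2 with GSSG, 29.0 and 43.9 with GSH, 72.1 and 60.2 with NH4NO3, and 106 and 78.6 with water. At 4W it was 114 and 602 with GSSG, 214 and 497 with GSH, 169.7 and 141 with NH4NO3, and 398 and 679.7 with water. At 5W it was 2130.3 and 2864 with GSSG, 1129.8 and 1865 with GSH, 1079 and 1031 with NH4NO3, and 2986 and 3512 with water. The NH4NO3 arrays were below both water arrays at each harvest. All 6 fed arrays were below them at 5W, and also at 3W, where every group mean was under 100. None of these differences passed: with NH4NO3 the log2 change was -1.65 ± 0.57 at 4W (limma adjusted p = 0.602), -1.60 ± 0.57 at 5W (limma adjusted p = 0.183) and -1.22 ± 0.33 over the mean of harvests (limma adjusted p = 0.128). The 5W and mean values passed when only the arrays compared entered the fit (limma adjusted p = 0.00711 and 0.00595), a setting that estimates the spread from those arrays alone. The 5W value also passed without the replicate 2 arrays of 4W, which do not enter its means and change only the estimated spread. AT1G06830 and AT2G47880 differed in which solution had the lowest mean signal at 4W: glutathione for AT1G06830 and NH4NO3 for AT2G47880. The lowest single array of AT2G47880 at 4W was GSSG replicate 1 (114), while GSSG replicate 2 gave 602. The contrast between the genes was not tested.

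AT4G33040, a CC-type member for which no role is stated here, had its lowest leaf blade signals with NH4NO3. At 4W its signal was 363 and 389 with GSSG, 433 and 311 with GSH, 214 and 215 with NH4NO3, and 415 and 489 with water. At 5W it was 1108 and 855 with GSSG, 726 and 825 with GSH, 576 and 662 with NH4NO3, and 1541 and 2411 with water. Every fed array at 5W was below both water arrays, and the order of the group means, from the lowest, was NH4NO3, GSH, GSSG, then water. Among the fed groups the arrays of neighbours in that order did not overlap, and their differences did not pass the test (GSH minus NH4NO3 0.32 ± 0.26, limma adjusted p = 0.918, and GSSG minus GSH 0.33 ± 0.26, limma adjusted p = 1). AT4G33040 fell with NH4NO3 at 5W (log2 change -1.62 ± 0.26), to 619 ± 61.0, against 1976 ± 615 with water (SD, n = 2 each), 3.19-fold lower (limma adjusted p = 0.00117). That comparison called 0.637% of all probe sets lower, and 2 of the 10 members. With GSH AT4G33040 fell by 1.30 ± 0.26, to 775 ± 70.1, 2.55-fold below water (limma adjusted p = 0.0124).

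The NH4NO3 change of AT4G33040 at 4W was -1.02 ± 0.26 (limma adjusted p = 0.379), and its GSSG change at 5W was -0.97 ± 0.26 (limma adjusted p = 0.227). Over the mean of harvests AT4G33040 fell with NH4NO3 by 0.97 ± 0.15 (limma adjusted p = 0.00403), where 0.149% of all probe sets were called lower, and this call was kept in all 22 alternatives and left-out arrays tried (adjusted p from 0.00150 to 0.0250). The 5W calls leaned on water replicate 2, the highest array of this gene: without it the NH4NO3 change was -1.30 (adjusted p = 0.0543) and the GSH change -0.98 (adjusted p = 0.254). The GSH call was also lost without GSH replicate 1 (adjusted p = 0.203) and with only the arrays compared (adjusted p = 0.102). In 3W shoots the gene gave 59.1 to 148 over the 8 arrays.

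AT3G62960 (GRXC14) was a dim probe set that brightened in the water controls of 5W. Its signal at 5W was 90.2 and 65.0 with GSSG, 44.9 and 73.1 with GSH, 19.3 and 59.4 with NH4NO3, and 238 and 337 with water. The 6 fed arrays all lay below both water arrays and all under 100, so no fold is given. AT3G62960 fell with NH4NO3 by 2.54 ± 0.55 on the log2(signal + 16) scale (limma adjusted p = 0.0148). With GSH the log2 change was -2.02 ± 0.55 (limma adjusted p = 0.0701) and with GSSG -1.69 ± 0.55 (limma adjusted p = 0.405). The GSH value passed with a pseudocount of 64 (limma adjusted p = 0.00982). It also passed without the 4 replicate 2 arrays of 4W, which do not enter its means and change only the estimated spread. At 4W it gave 10.3 and 35.1 with GSSG, 4.51 and 65.0 with GSH, 9.92 and 12.0 with NH4NO3, and 70.2 and 66.1 with water, again with every fed array below the water arrays, and none of these differences passed. The 5W call with NH4NO3 was lost without NH4NO3 replicate 1 (adjusted p = 0.237) or water replicate 2 (adjusted p = 0.182), with a pseudocount of 1 (adjusted p = 0.0794) and with only the arrays compared (adjusted p = 0.0662).

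**Figure D2:**
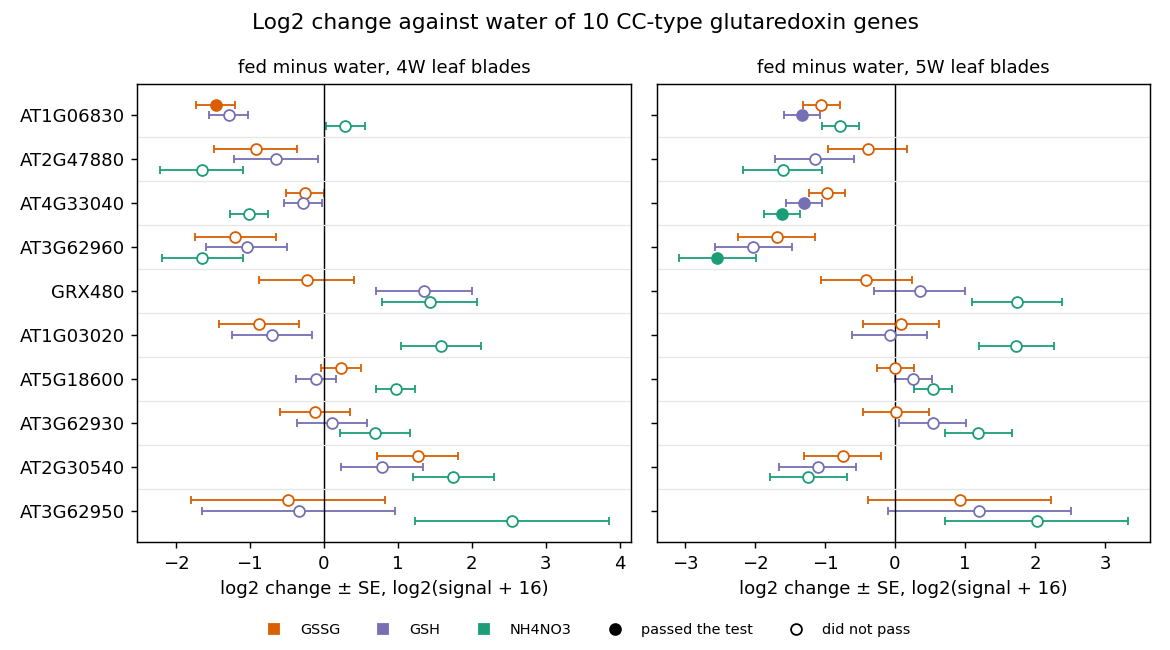
Log2 change against water, with its standard error, of the 10 members in leaf blades of 4W and 5W for GSSG, GSH and NH4NO3; filled points passed limma's test. The filled points, AT1G06830 with GSSG at 4W, AT1G06830 and AT4G33040 with GSH at 5W, and AT4G33040 and AT3G62960 with NH4NO3 at 5W, are all below 0.

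Beside the members that fell, others had higher signals with NH4NO3, and none of these passed the test in the fit of all arrays. With NH4NO3 at 4W limma called 0 members and 0.0132% of all probe sets, and 7 members had an unadjusted p under 0.05, against 6.59% of all probe sets. Both NH4NO3 arrays were above both water arrays for 5 members, AT1G03020, AT5G18600, AT3G62930, AT3G62950 and GRX480, as they were for 13.2% of all probe sets, and below them for 3, AT2G47880, AT3G62960 and AT4G33040, as for 17.4% of all. At 5W the same 5 genes were above both water arrays, as were 17.4% of all probe sets, and the other 5 members were below them, as were 24.4% of all. At 5W 8 members had an unadjusted p under 0.05, against 13.2% of all probe sets. The median log2 change of the 10 members with NH4NO3 was 0.83 at 4W and -0.12 at 5W, and over all probe sets it was -0.04 and -0.05.

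GRX480, the salicylate-inducible member, is among those 5. At 4W its signal was 28.7 and 99.3 with GSSG, 78.4 and 477 with GSH, 266 and 168 with NH4NO3, and 37.5 and 117 with water. At 5W it was 111 and 38.9 with GSSG, 163 and 95.8 with GSH, 437 and 289 with NH4NO3, and 114 and 78.4 with water. Both NH4NO3 arrays stood above both water arrays at each of these harvests. The log2 change with NH4NO3 was 1.43 ± 0.65 at 4W (limma adjusted p = 0.748) and 1.75 ± 0.65 at 5W (limma adjusted p = 0.210). The 5W value passed without the replicate 2 arrays of 4W, which do not enter its means and change only the estimated spread. At 4W the GSH arrays were far apart, and the higher of them is a replicate 2 array. PDF1.2, the gene that GRX480 is known to repress, was not called against water with any solution. Its signal at 5W was 1185 and 4060.2 with NH4NO3, against 1754 and 925 with water, so these arrays overlapped.

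AT1G03020 (GRXS1) had its highest leaf blade signals with NH4NO3. Its probe set was dim, with a group mean that reached 100 only in blades fed NH4NO3. At 4W its signal was 99.7 and 5.91 with GSSG, 45.4 and 36.1 with GSH, 268 and 255 with NH4NO3, and 108 and 52.7 with water. At 5W it was 32.9 and 16.2 with GSSG, 13.3 and 27.0 with GSH, 83.8 and 139 with NH4NO3, and 18.7 and 24.3 with water. The NH4NO3 arrays were the highest pair at both harvests, while in 3W shoots all 8 arrays gave 69.0 to 113. The log2 change with NH4NO3 was 1.59 ± 0.54 at 4W (limma adjusted p = 0.595), 1.73 ± 0.54 at 5W (limma adjusted p = 0.115) and 1.07 ± 0.31 over the mean of harvests (limma adjusted p = 0.173). The 5W value passed without the 4 replicate 2 arrays of 4W (limma adjusted p = 0.0164), which do not enter its means but do enter the estimate of its spread.

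**Figure D3:**
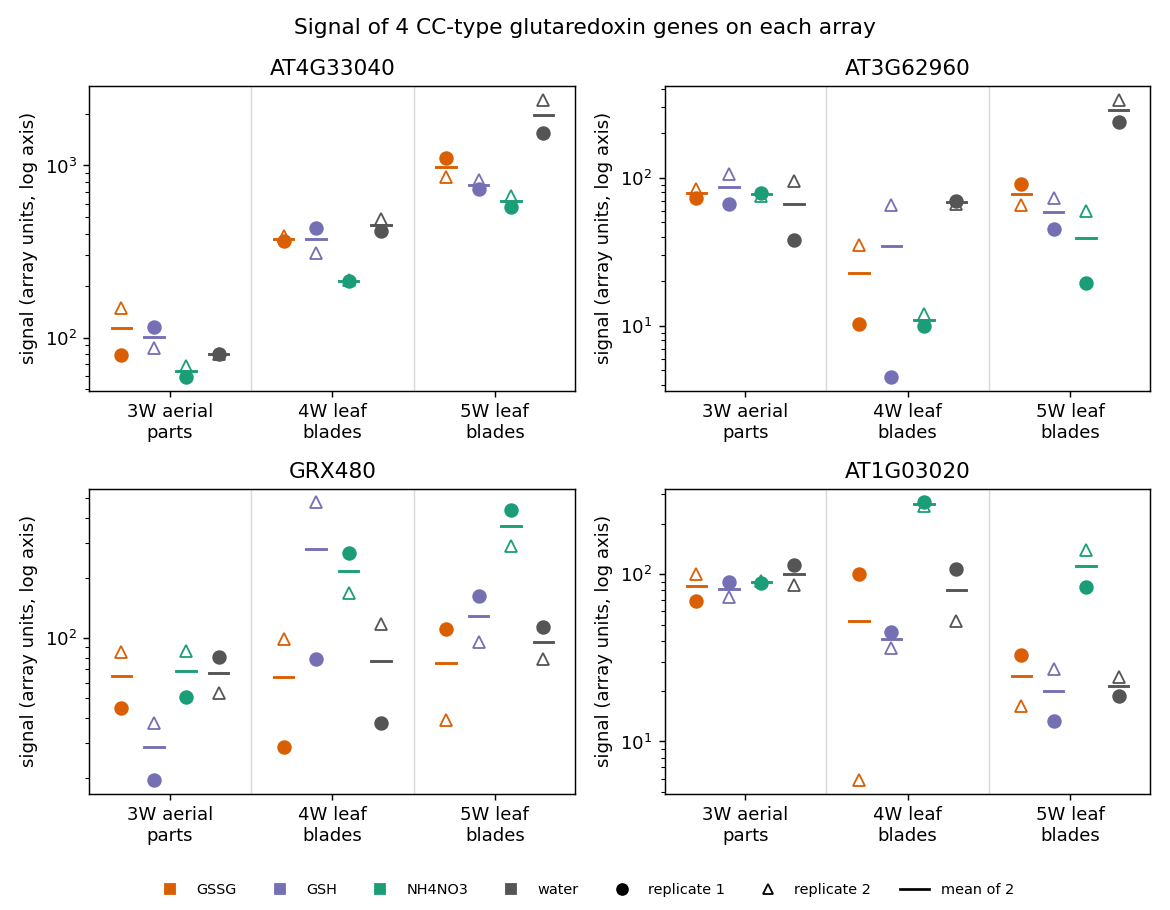
Signal (array units, log axis) of AT4G33040, AT3G62960, GRX480 and AT1G03020 on each array, by harvest and watering; filled circles are replicate 1, open triangles replicate 2 and bars the mean of 2. In 5W blades the water arrays are the highest of AT4G33040 (1541 and 2411) and AT3G62960 (238 and 337), and the NH4NO3 arrays are the highest of GRX480 (437 and 289) and AT1G03020 (83.8 and 139 against 18.7 and 24.3 with water).

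AT5G18600 (GRXS2) had its highest signals in 4W blades fed NH4NO3. The 4W arrays gave 3117 and 4571 with GSSG, 3234 and 2759 with GSH, 5884 and 6783 with NH4NO3, and 2948 and 3501 with water. Mean signal with NH4NO3 was 6334 ± 636, against 3225 ± 391 with water (SD, n = 2 each), and the log2 change of 0.97 ± 0.27 did not pass (limma adjusted p = 0.520). At 5W its signal was 901 and 1745 with GSSG, 1468 and 1533 with GSH, 2019 and 1651 with NH4NO3, and 1023 and 1524 with water, and the log2 change with NH4NO3 was 0.54 ± 0.27 (limma adjusted p = 0.395). The GSSG and GSH arrays of AT5G18600 overlapped the water arrays at 4W and 5W.

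AT3G62930 (GRXS6) was dim throughout, with a group mean under 100 in 10 of the 12 groups. Its NH4NO3 arrays gave 120.4 and 81.7 at 4W, against 53.9 and 56.4 with water, and 57.1 and 39.0 at 5W, against 28.7 and 1.24 with water. The log2 change with NH4NO3 was 0.70 ± 0.47 at 4W (limma adjusted p = 0.867) and 1.19 ± 0.47 at 5W (limma adjusted p = 0.253).

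AT2G30540 (GRXS9) had opposite signs with NH4NO3 at the 4W and 5W harvests. Its 4W signal was 74.1 and 127 with GSSG, 93.1 and 44.4 with GSH, 271 and 71.2 with NH4NO3, and 79.2 and 7.22 with water. At 5W it was 149 and 195 with GSSG, 139.6 and 121 with GSH, 107 and 128 with NH4NO3, and 387 and 228 with water. At 5W every fed array was below both water arrays, whereas at 4W the groups overlapped. The log2 change with NH4NO3 was 1.75 ± 0.55 at 4W (limma adjusted p = 0.547) and -1.24 ± 0.55 at 5W (limma adjusted p = 0.330). The 5W value passed without the replicate 2 arrays of 4W, which do not enter its means and change only the estimated spread. The effect at 5W minus that at 4W was -2.99 ± 0.78 (limma adjusted p = 0.173). That difference of effects passed without 4W water replicate 1 (adjusted p = 0.0268) and without 4W NH4NO3 replicate 2 (-3.85, adjusted p = 0.0494). In the tests of the 5W effect against the 4W effect 0 of the 10 members were called for GSSG, GSH or NH4NO3, and 0.00879%, 0.154% and 0.171% of all probe sets were; at an unadjusted p under 0.05 limma found 1, 2 and 2 members, against 6.65%, 8.43% and 7.50% of all probe sets.

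AT3G62950 (GRXC11) split by replicate number in leaf blades of every watering but NH4NO3. At 4W its signal was 2.15 and 260.4 with GSSG, 7.45 and 245 with GSH, 475 and 665 with NH4NO3, and 5.81 and 434 with water, the replicate 1 array first in each pair. Replicate 1 was near the lowest values of the array except with NH4NO3, and replicate 2 was bright in all 4 waterings. The 4 bright replicate 2 arrays are those with the high actin 3'/5' ratios. At 5W the actin ratios were 2.65 to 3.11, and replicate 2 was again the brighter array except with NH4NO3. The part of RNA quality in this split was not tested. The log2 difference with NH4NO3 at 4W was 4.49 within replicate 1 and 0.60 within replicate 2, and the fitted change was 2.55 ± 1.31 (limma adjusted p = 0.797). At 5W the signal was 5.21 and 149.7 with GSSG, 32.4 and 90.9 with GSH, 125 and 98.4 with NH4NO3, and 1.92 and 38.6 with water, and the log2 change with NH4NO3 was 2.02 ± 1.31 (limma adjusted p = 0.561). Its neighbour AT3G62960 ran the other way with NH4NO3 at both harvests.

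**Figure D4:**
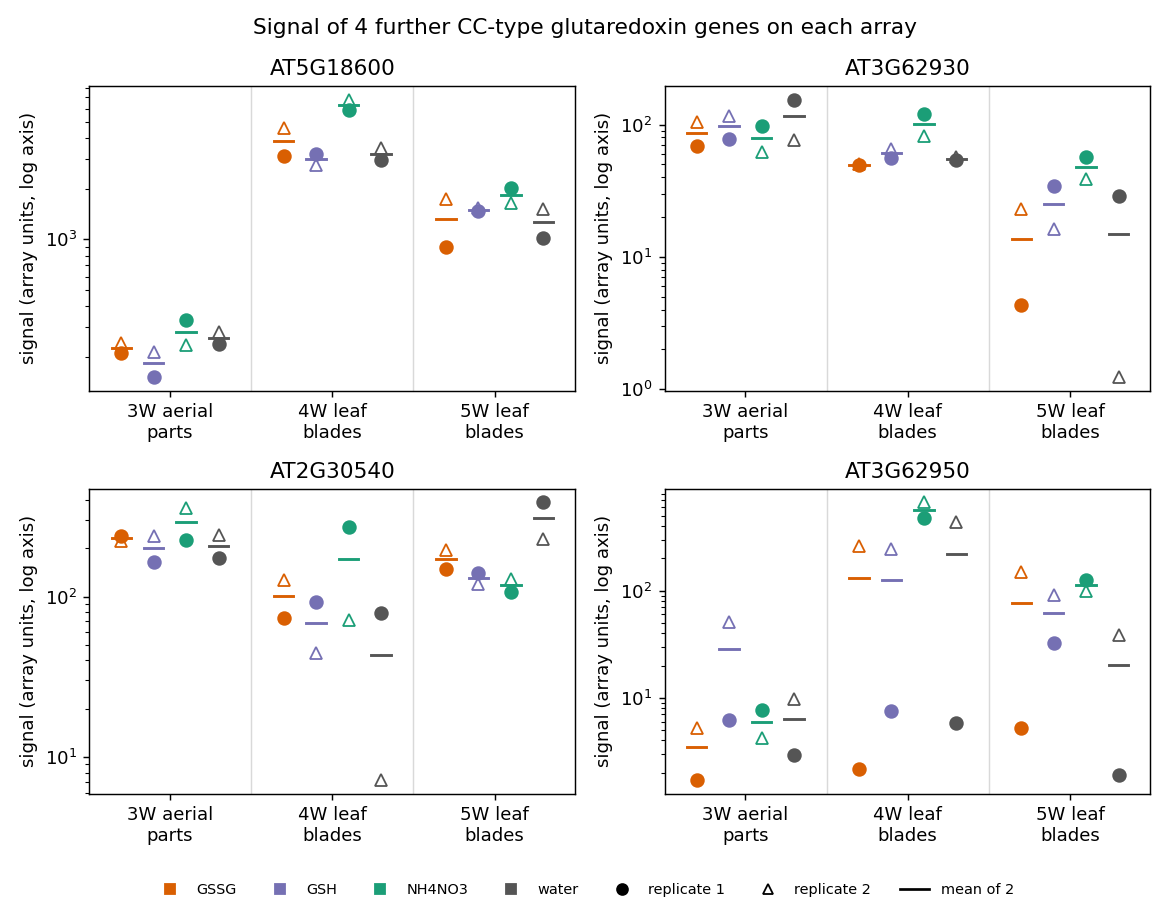
Signal (array units, log axis) of AT5G18600, AT3G62930, AT2G30540 and AT3G62950 on each array, by harvest and watering; filled circles are replicate 1, open triangles replicate 2 and bars the mean of 2. At 4W the open triangles of AT3G62950 (245 to 434) stand far above its filled circles (2.15 to 7.45) with GSSG, GSH and water, and both NH4NO3 arrays are bright (475 and 665).

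With GSSG and GSH the members other than AT1G06830 and AT4G33040 gave no call against water. At 4W limma called 0 members with GSH, and 0.0044% of all probe sets, and 2 members had an unadjusted p under 0.05, against 8.16% of all probe sets. At 5W it called 0 members with GSSG, and 0.22% of all probe sets, and 3 members had an unadjusted p under 0.05, against 6.94% of all probe sets. The median log2 change of the 10 members was -0.37 with GSSG and -0.31 with GSH at 4W, against -0.03 and -0.07 over all probe sets. At 5W it was -0.40 with GSSG and -0.59 with GSH, against -0.03 and -0.02 over all probe sets.

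GSSG and GSH, given at equal glutathione doses, were compared with each other and with NH4NO3 at each harvest, 90 member comparisons in all. Of these 2 were called, both of AT1G06830 at 4W. AT1G06830 was 3.73-fold lower with GSSG than with NH4NO3 (log2 change -1.75 ± 0.26, limma adjusted p = 0.00378), where 0.149% of all probe sets were called lower. It was 3.29-fold lower with GSH than with NH4NO3 (log2 change -1.58 ± 0.26, limma adjusted p = 0.00976), where 0.106% were called lower. Both calls were lost without NH4NO3 replicate 1, the brightest array of the gene (-1.23, adjusted p = 0.0728, and -1.05, adjusted p = 0.146). The GSSG call was also lost without GSSG replicate 2 (adjusted p = 0.0639) and the GSH call without GSH replicate 2 (adjusted p = 0.0884), while both were kept on leaving out all 4 replicate 2 arrays of 4W. With only the arrays compared in the fit neither passed (adjusted p = 0.549 and 0.951), and without intensity trend the GSH call was lost (adjusted p = 0.0504). At 5W AT1G06830 differed between GSSG and NH4NO3 by -0.27 ± 0.26 (limma adjusted p = 0.994) and between GSH and NH4NO3 by -0.55 ± 0.26 (limma adjusted p = 0.801).

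Between the oxidized and the reduced form 0 members were called at 3W, 4W or 5W, where 0%, 0.00879% and 0% of all probe sets were called, and at an unadjusted p under 0.05 limma found 0, 1 and 0 members, against 2.90%, 6.77% and 3.93% of all probe sets. The member at 4W was GRX480, with a log2 difference of -1.59 ± 0.65 (GSSG minus GSH, limma adjusted p = 0.641), carried by the GSH array of 477. For AT1G06830 the difference was -0.17 at 4W (95% interval -0.72 to 0.37) and 0.28 at 5W (-0.27 to 0.83). For AT4G33040 it was 0.03 at 4W (-0.50 to 0.57) and 0.33 at 5W (-0.21 to 0.86), and for AT2G47880 at 5W it was 0.76 (-0.42 to 1.94). At 5W both GSSG arrays were above both GSH arrays for 4 members, AT1G06830, AT2G47880, AT4G33040 and AT2G30540, as for 16.2% of all probe sets.

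Against NH4NO3 the remaining differences did not pass in the fit described. For AT1G03020 at 4W the GSSG minus NH4NO3 difference was -2.46 ± 0.54 (limma adjusted p = 0.0721) and the GSH minus NH4NO3 difference -2.29 ± 0.54 (limma adjusted p = 0.127), with both glutathione pairs below the NH4NO3 arrays. Both passed with a pseudocount of 64 (adjusted p = 0.0191 and 0.0183), and the GSSG difference also with a robust prior (adjusted p = 0.0464) and without 4W GSSG replicate 1 (adjusted p = 0.00210). For GRX480 at 5W the GSSG minus NH4NO3 difference was -2.15 ± 0.65 (limma adjusted p = 0.396). At 5W limma called 0 members for either form against NH4NO3, and 0.0879% and 0.044% of all probe sets for GSSG and GSH; 5 and 2 members had an unadjusted p under 0.05, against 5.93% and 6.23% of all probe sets. In 3W shoots it called 0 members for either form against NH4NO3, and 0% and 0.0044% of all probe sets, with 1 and 2 members at an unadjusted p under 0.05, against 3.20% and 2.59% of all probe sets.

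More members were called for leaf age than for feeding at any single harvest. The leaf age test averages the 4 waterings and is more precise, so these counts do not show which effect was larger. For AT4G33040 the standard error was 0.13 for leaf age, against 0.26 for NH4NO3 minus water at 5W. In 5W blades against 4W blades of the same positions, over the mean of the 4 waterings, 4 members rose, where 16.1% of all probe sets did, and 3 fell, where 13.6% did. AT2G47880 rose by 2.62 ± 0.28 (limma adjusted p = 9.92e-07), AT4G33040 by 1.47 ± 0.13 (limma adjusted p = 9.09e-08), AT3G62960 by 1.24 ± 0.27 (limma adjusted p = 0.00156) and AT2G30540 by 1.01 ± 0.27 (limma adjusted p = 0.00803). All 8 arrays of AT2G47880 and of AT4G33040 at 5W lay above all 8 at 4W. AT5G18600 fell by 1.42 ± 0.13 (limma adjusted p = 1.96e-07), with all 8 arrays of 5W below those of 4W. AT3G62930 fell by 1.09 ± 0.24 (limma adjusted p = 0.00134) and AT1G03020 fell by 0.87 ± 0.27 (limma adjusted p = 0.0188), a call lost without 4W water replicate 1 (adjusted p = 0.0523), under quantile normalization (adjusted p = 0.0507) and with a pseudocount of 1 (adjusted p = 0.0613). For AT1G06830 (0.09 ± 0.13, limma adjusted p = 0.684), GRX480 (0.18 ± 0.32, limma adjusted p = 0.741) and AT3G62950 (-1.06 ± 0.65, limma adjusted p = 0.253) the change did not pass. Leaf age and harvest occasion change together here and cannot be told apart. GI, the single clock gene measured, was also called higher at 5W than at 4W. With water its signal was 2674 and 2942 at 4W and 3558 and 4117 at 5W. The part of harvest time in the members' changes was not tested. In bulk leaf RNA, fewer cells of a type and less RNA per cell cannot be told apart.

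**Figure D5:**
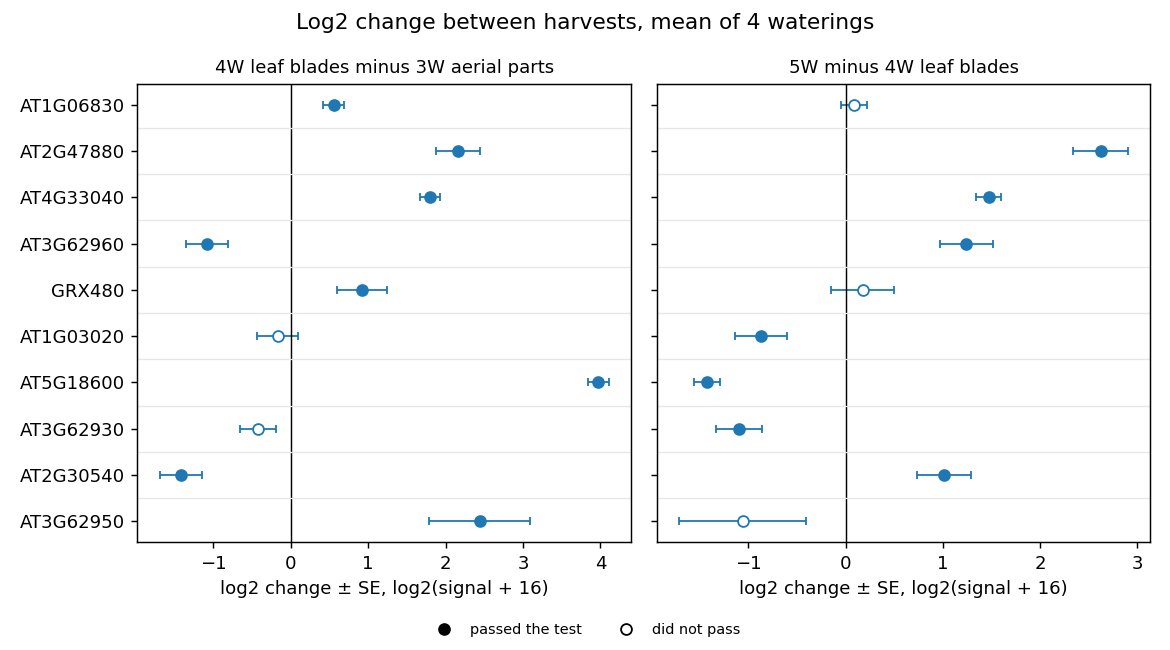
Log2 change with its standard error between harvests, over the mean of the 4 waterings, for 4W leaf blades minus 3W aerial parts and for 5W minus 4W leaf blades; filled points passed limma's test. AT2G47880 and AT4G33040 rose in both steps, and AT5G18600 rose by 3.97 in the first and fell by 1.42 in the second.

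From 3W shoots to 4W blades tissue, age and harvest occasion change together and cannot be told apart. In 4W blades against 3W shoots 6 members rose, where 26.3% of all probe sets did, and 2 fell, where 29.7% did. AT5G18600 rose by 3.97 ± 0.13 (limma adjusted p = 2.58e-15), with 2759 to 6783 on the 4W arrays, against 151 to 331 on the 3W arrays. AT2G47880 rose by 2.16 ± 0.28 (limma adjusted p = 1.30e-06), AT4G33040 by 1.80 ± 0.13 (limma adjusted p = 1.65e-10) and AT1G06830 by 0.55 ± 0.13 (limma adjusted p = 0.00112). AT2G30540 fell by 1.42 ± 0.27 (limma adjusted p = 0.000149) and AT3G62960 fell by 1.08 ± 0.27 (limma adjusted p = 0.00185). AT3G62950 rose by 2.44 ± 0.65 (limma adjusted p = 0.00306) and GRX480 by 0.92 ± 0.32 (limma adjusted p = 0.0198), and both calls were lost without the 4 replicate 2 arrays of 4W (0.91, adjusted p = 0.132, and 0.37, adjusted p = 0.306). The GRX480 call was also lost without 3W GSSG replicate 1, 4W water replicate 2, 4W GSSG replicate 2 or 4W GSH replicate 2 (adjusted p from 0.0517 to 0.0724). Of 5 shoot meristem markers 1 was measured, CLV3, at a signal of 4.45 to 38.6 in 3W shoots, and it fell by 0.59 ± 0.23 in 4W blades (limma adjusted p = 0.0358); its part in these changes was not tested. Of 3 guard cell markers 1 was measured, FMA, which was called higher in 4W blades. It gave 137 to 203 in 3W shoots and 153 to 292 in 4W blades, and its part was not tested either. The listed markers of mesophyll, epidermis, phloem, xylem, trichomes, roots and flowers had no probe set with a gene of its own, so the leaf label was not checked against them.

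Other glutaredoxins gave a background for the members. Of the 5 genes of the tandem cluster 4 were measured, and their median log2 change with NH4NO3 at 4W was 2.76, above that of the 10 members; at 3W and 5W it was -0.05 and 0.68. In that cluster AT4G15700 rose with NH4NO3 at 4W by 2.95 ± 0.42 (limma adjusted p = 0.0127), with signals of 303 and 368, against 34.5 and 24.8 with water. Of 6 further CC-type genes 3 were measured, and AT5G11930 fell with NH4NO3 at 5W by 1.40 ± 0.34 (limma adjusted p = 0.0329), with signals of 203 and 239.9, against 652 and 567 with water. Among 10 listed glutaredoxins of other classes 5 were measured, GRXC1 and GRXC2 among them, and 0 were called against water at any harvest.

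Genes tied to the members' known roles were sparsely measured, with 0 of 10 TGA factors and 0 of 5 TOPLESS co-repressor genes on a probe set of their own. Of 12 genes of the CEP receptor pathway and nitrate uptake 3 were measured. NRT2.5, a high-affinity nitrate transporter of nitrogen-starved plants, fell with NH4NO3 at 5W (log2 change -2.41 ± 0.50, limma adjusted p = 0.0115), with signals of 19.5 and 36.4, against 219 and 209 with water. The other 2, the CEP peptide gene AT5G66815 and the phosphatase gene AT4G32950, were not called against water. Of 17 nitrate response genes 3 were measured, and over the 9 comparisons with water they gave 5 calls, all upward and at 5W. AT1G25550 (HHO3), a repressor of nitrogen starvation genes, rose with GSSG by 1.36 ± 0.25 (limma adjusted p = 0.0230), with GSH by 2.17 ± 0.25 (limma adjusted p = 6.06e-05) and with NH4NO3 by 2.88 ± 0.25 (limma adjusted p = 2.44e-06). AT1G68670 (HHO2), of the same family, rose with GSH by 1.55 ± 0.32 (limma adjusted p = 0.0168) and with NH4NO3 by 1.78 ± 0.32 (limma adjusted p = 0.00354). Over the mean of harvests AT3G25790 (HHO1) fell with GSH by 1.46 ± 0.26 (limma adjusted p = 0.0198) and AT1G25550 rose with NH4NO3 by 0.93 ± 0.14 (limma adjusted p = 0.00421). The HHO1 probe set was dim, with 1.47 to 4.36 on the GSH arrays and 3.22 to 96.9 on the water arrays. Of 14 cytokinin response genes 2 were measured, and RR16 fell with NH4NO3 at 5W by 1.77 ± 0.45 (limma adjusted p = 0.0402). The single salicylate and jasmonate gene of 17 (PDF1.2), the single clock gene of 9 (GI) and the 2 senescence genes of 9 (WRKY53 and WRKY6) gave 0 calls against water.

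Across the 12 group means of log2 signal, the members that resembled each other most were AT2G47880 and AT4G33040 (Pearson r = 0.962), followed by AT5G18600 and AT3G62950 (r = 0.830) and by AT1G03020 and AT3G62930 (r = 0.800). AT3G62930 ran opposite to AT2G47880 (r = -0.918) and AT4G33040 (r = -0.907). The neighbours AT3G62950 and AT3G62960 had r = -0.673, and the mobile signal genes AT1G06830 and AT2G47880 had r = 0.433. These are descriptions over 12 points that share arrays and a strong effect of harvest. Among all genes with a probe set of their own and a mean above the 40th percentile, AT2G47880 was most like AT1G80130 (r = 0.986), which was also the third most like AT4G33040 (r = 0.987) after AT1G22160 (r = 0.991) and AT4G27900 (r = 0.989). AT5G18600 was most like AT5G62720 (r = 0.991) and AT1G03020 most like the metallothionein gene MT1C (r = 0.964). The closest genes to AT1G06830 (AT2G48060) and GRX480 (AT2G18690) reached r = 0.906 and 0.905.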

How the data were processed

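Transcripts were measured on 24 Affymetrix arrays, 2 for each of 12 groups taken from the sample titles; 100 ng of total RNA per sample was amplified and biotin-labelled from the 3' end, per the labels' protocols. Each deposited value is an intensity on the linear scale, made with Affymetrix Expression Console per the submitters' processing notes; the sources used here give neither its version nor its algorithm. The common trimmed mean of 500 was read from the deposited values, and no further normalization was added. The number of arrays limits the precision.

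From the deposited intensities log2(signal + 16) was computed, so changes are on the log2(value + 16) scale and understate those of dim probe sets. The 64 control probe sets were left out and 22746 were tested with no filter. Limma 3.58.1 in R 4.3.3 fitted 1 mean per group to all 24 arrays (12 residual degrees of freedom), with variances moderated along an intensity trend (prior degrees of freedom 7.39), in 26 contrasts, each adjusted by the Benjamini-Hochberg method at a threshold of 0.05. Intervals are 95% intervals from the same fit. The fit was tested on simulated data.

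Of the probe sets tested, 13513 had 1 gene, 503 several and 8730 none in the platform annotation, and symbols follow the TAIR10.1 reference. Of 154 loci in 21 lists 36 were measured, and 9 lists had none. The members and lists were chosen with earlier results of these data known. All 10 members were named; of other lists, the genes called in a contrast, at most 4 a list by adjusted p, and AT4G15700; for likeness, the 3 genes with the highest Pearson r over group means. PDF1.2, the genes listed as not called and GRXC1 and GRXC2 are named outside that rule. Alternatives were a dim-probe filter at the 40th percentile, median centring of arrays, quantile normalization, a pseudocount of 1 or of 64, no trend or a robust prior, a replicate block, only the arrays compared, leaving out each array and, chosen after seeing the data, leaving out the 4 replicate 2 arrays of 4W. Plots were drawn with matplotlib 3.10.9 and pandas 2.3.3 in Python 3.11.15.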

Additional observations from a re-analysis of the deposited data

Results flagged for a closer look

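AT4G33040 was singled out because its GSH arrays stood on opposite sides of water at different harvests. In 3W shoots both GSH arrays (115 and 86.6) were above both water arrays (80.7 and 80.1), and in 5W blades both GSH arrays (726 and 825) were below both water arrays (1541 and 2411). The GSH effect at 5W minus that at 3W was -1.57 on the log2 scale, and this difference was not tested. Of the 8 arrays of 3W, 2 reached a signal of 100.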

How the results depend on the processing

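No call of a member changed sign under any alternative. The 5 calls against water at single harvests became 9 with a replicate block, 3 with only the arrays compared and 10 without the 4 replicate 2 arrays of 4W, and 0 to 7 on leaving out single arrays, with 0 without 5W water replicate 2, 2 without 5W GSH replicate 1 and 3 without 5W GSH replicate 2. The 2 calls over the mean of harvests became 1 without the intensity trend, 5 with the block, 4 with only the arrays compared and 1 to 4 on leaving out single arrays. The 2 calls between solutions became 4 with a pseudocount of 64, 1 without the trend, 4 with the block, 0 with only the arrays compared and 0 to 4 on leaving out single arrays, with 0 without 4W NH4NO3 replicate 1 and 1 without 4W GSH replicate 2. The 0 calls for the 5W against the 4W effect became 1 with the block (AT2G30540 with NH4NO3) and 0 to 2 on leaving out single arrays, with 1 without 4W water replicate 1 and 2 without 4W NH4NO3 replicate 2. The 7 leaf age calls became 4 without probe sets under the 40th percentile, where 6 members were still tested, and 6 to 7 on leaving out single arrays. The 8 calls of 4W against 3W were 7 to 8 on leaving out single arrays. The cause of these moves was not tested, other than the fewer arrays or probe sets that a setting itself brings. Leaving out the 4 replicate 2 arrays of 4W leaves the 5W changes as they are and alters their tests only through estimates of spread.

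Replicate numbers were checked for pairing: deviations of same-numbered arrays from their group means correlated at 0.0487 to 0.399, with 17 of 18 correlations over 0.1, the exception at 3W. The labels do not say what a number marks, and pairing was to be accepted only with every correlation over 0.1, so the fit without a block was kept, though arrays of 1 number tended to deviate together. With the block AT1G06830 was also called with GSH at 4W (adjusted p = 0.0201), GSSG at 5W (0.0442) and GSSG over the mean of harvests (0.00774), AT3G62960 with GSH at 5W (0.0219) and NH4NO3 over the mean (0.0181), AT2G47880 with NH4NO3 over the mean (0.0206), AT3G62950 for leaf age (0.0405), and AT1G03020 with NH4NO3 against water at 5W (0.0483) and for GSSG and GSH against NH4NO3 at 4W (0.0199 and 0.0362); the other calls were kept. Each group has 2 arrays, signals under 100 have little order, and AT3G62930, AT3G62960, AT3G62950, AT1G03020 and GRX480 rest largely on such signals.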
